A study of Homo sapiens with 19 samples.

Results

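The Wnt pathway and crypt stem cell genes are 34 genes given by symbol: Wnt receptors, β-catenin and APC, feedback targets and secreted inhibitors, transcription factors, and markers of the stem and progenitor cells at the base of the intestinal crypt. Each was found once, by its Ensembl ID, in each of 3 gene tables, which hold 60612 IDs (HCT116), 63086 IDs (WiDr) and 82890 IDs (WiDr, ONT). HCT116 and WiDr are human colorectal carcinoma lines. HCT116 was treated for 96 h with the solvent DMSO, with 10 µM GSK025 (GSK3235025, an inhibitor of the arginine methyltransferase PRMT5) or with 5 µM GSK715 (GSK3368715, an inhibitor of PRMT1 and other type I enzymes), and WiDr for 96 h with DMSO or 5 µM GSK715. Short reads were made of 3 libraries per group, and Oxford Nanopore (ONT) sequencing of full-length cDNA added 2 libraries for each WiDr group. No source says whether the libraries of a group are separate cultures; the p-values take in only how these libraries vary, which may be technical.

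In the canonical Wnt pathway, a Wnt ligand brings together a Frizzled receptor and the co-receptor LRP5 or LRP6, and the complex of AXIN, APC and kinases then no longer marks β-catenin (CTNNB1) for breakdown. β-catenin enters the nucleus, joins a factor of the TCF/LEF family (TCF7, LEF1, TCF7L2) and switches on target genes, several of which act back on the pathway: AXIN2 and NKD1 inside the cell, the ubiquitin ligases RNF43 and ZNRF3 on Frizzled, and NOTUM and DKK1 outside the cell. R-spondins bound to LGR4 or LGR5 hold off RNF43 and ZNRF3, and this keeps crypt base stem cells dividing. As background, HCT116 carries an activating CTNNB1 mutation and WiDr a truncated APC, so in both lines the pathway is active without a ligand.

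Levels below are CPM, a gene's share of its library's counts expressed on a common total and scaled by TMM factors, as mean ± SD (n = 3, or 2 for ONT). Changes are given as log2FC, the log2 of the fold change, beside an approximate standard error (SE). A gene rose, fell or differed where its p from edgeR's quasi-likelihood test, adjusted over all genes in that fit, was under 0.05. HCT116 libraries held 64558688 to 66915779 counts, WiDr libraries 59612948 to 82390261 and ONT libraries 1449698 to 1667813. The 8 epithelial markers summed to 3127 to 5818 CPM in HCT116, 14532 to 21302 CPM in WiDr and 11777 to 17534 CPM in ONT, although KRT20, VIL1 and CDX1 were at most 1.82 CPM in HCT116, and CDX1 and CDX2 at most 1.84 CPM in WiDr short reads. The 13 markers of immune, endothelial and stromal cells summed to 18.1 to 29.5, 19.1 to 41.0 and 22.6 to 26.5 CPM. Among them, COL1A1 was at 14.7 to 25.56 CPM in HCT116, 10.98 to 16.41 CPM in WiDr and 4.714 to 10.21 CPM in ONT. CD14 was at most 0.3296 CPM in HCT116, 7.261 to 21.3 CPM in WiDr and 9.528 to 16.84 CPM in ONT. PTPRC was at most 0.681 CPM and MS4A1 at 0 counts in every library. Exons of RNF43 (73.9% of bases), RGMB (45.65%), AXIN2 (25.18%) and BMI1 (23.35%) overlap another annotated gene, so their levels are uncertain. The gene with most overlap lies on the same strand for RNF43, AXIN2 and BMI1, and on the opposite strand for RGMB. No source says whether counting used the strand.

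With DMSO, the lines differed in which of these genes were abundant; line and table cannot be told apart, so these levels were not tested. Per kb of exonic length, DKK1 led in HCT116 (162 CPM per kb), followed by the adhesion receptor CD44 (69.6) and TCF7L2 (36.7). WiDr had most of RNF43 (52.5 CPM per kb), LRP5 (42.9) and DKK1 (41.0), with SOX9 (39.1) next. AXIN2, the target most often used as a readout of the pathway, was at 10.9 ± 0.111 CPM in HCT116 and at 161 ± 3.94 CPM in WiDr. NKD1 (39.9 ± 1.42 and 3.47 ± 0.824 CPM), NOTUM (8.28 ± 0.498 and 0.586 ± 0.116 CPM), EPHB2 (46.2 ± 3.18 and 3.92 ± 0.323 CPM) and ALCAM (149 ± 3.08 and 11.1 ± 1.33 CPM) stood the other way, higher in HCT116. ASCL2, the transcription factor that sets the crypt stem cell state, had 0 counts in all 9 HCT116 libraries, which allows at most 0.0483 CPM per library by a floor of 3 counts, and was at 1.87 ± 0.580 CPM in WiDr. The stem cell markers LGR5 and OLFM4 were close to absent from both lines: LGR5 stayed under 1 CPM in every short-read library and OLFM4 under 0.2 CPM. The transcription factor LEF1 also stayed under 0.2 CPM, and APCDD1, a membrane inhibitor of Wnt ligands, had 0 counts in all 19 libraries. Of the crypt genes, LGR4, SOX9, CD44, EPHB3, PROM1, RGMB, SLC12A2, ALCAM and BMI1 were measured at more than 10 CPM in both lines with DMSO.

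RefSeq promoter windows (GRCh38.p14, from 250 bases before to 50 bases after a start, 300 bases) were matched for 24 of the 34 genes, with 37 windows. From the genes given by library below, the windows with most matches of CTTTGA are shown, those of SP5, DKK1 and PROM1. CTTTGA is the core of the TCF/LEF binding motif, and no other window of the 37 held it on either strand. Capitals mark CTTTGA or, for a match on the other strand, TCAAAG.
SP5 (chr2:170715087-170715386, plus strand): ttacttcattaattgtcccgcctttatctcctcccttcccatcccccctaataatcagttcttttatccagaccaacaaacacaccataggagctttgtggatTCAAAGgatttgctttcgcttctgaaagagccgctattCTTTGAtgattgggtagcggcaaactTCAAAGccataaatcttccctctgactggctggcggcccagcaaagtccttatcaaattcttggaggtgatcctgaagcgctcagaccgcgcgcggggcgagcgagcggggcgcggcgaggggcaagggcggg
DKK1 (chr10:52314031-52314330, plus strand): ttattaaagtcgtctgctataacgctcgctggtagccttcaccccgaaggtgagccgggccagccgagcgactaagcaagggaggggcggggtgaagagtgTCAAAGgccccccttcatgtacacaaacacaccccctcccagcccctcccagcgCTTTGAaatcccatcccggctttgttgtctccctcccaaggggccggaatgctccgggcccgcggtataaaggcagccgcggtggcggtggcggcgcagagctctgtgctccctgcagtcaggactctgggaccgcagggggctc
PROM1 (chr4:16076069-16076368, minus strand, 1 of 4 windows of the gene): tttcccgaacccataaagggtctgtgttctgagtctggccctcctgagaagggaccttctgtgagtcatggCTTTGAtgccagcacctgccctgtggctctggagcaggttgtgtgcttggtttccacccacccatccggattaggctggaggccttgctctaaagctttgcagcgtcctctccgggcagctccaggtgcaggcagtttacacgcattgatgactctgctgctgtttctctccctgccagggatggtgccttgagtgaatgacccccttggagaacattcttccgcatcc
SP5 has 3 matches, which begin 147, 109 and 83 bases before its start, DKK1 has 2 (149 and 95 bases before) and PROM1 has 1 (179 bases before). CTTTGA was in 3 of the 37 windows (8.11%) and in 12.9% of all 35116 windows in the table. The SP5 gene (ENSG00000204335) lies at chr2:170715351-170718078 and DKK1 (ENSG00000107984) at chr10:52314296-52318042, both on the plus strand, and PROM1 (ENSG00000007062) at chr4:15963076-16084378 on the minus strand (GRCh38, GENCODE 29). The longer forms CTTTGAA and CTTTGAT, which contain it, were in 2 windows each (5.41%), against 4.43% and 2.62% of all windows. These are matches of letters near a start, and no binding was measured.

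With the PRMT5 inhibitor GSK025 in HCT116, 4 of 7 feedback targets and inhibitors tested rose, while DKK1 and TNFRSF19 fell and NKD1 did not pass, and 5 of 8 crypt markers fell. AXIN2 rose 1.73-fold, NOTUM 2.21-fold, RNF43 1.56-fold and ZNRF3 1.42-fold, and the target transcription factor SP5 2.64-fold. DKK1 fell 2.15-fold and APC 2.07-fold. In all, 27 of the 34 genes had enough counts to be tested and 22 passed, 11 higher and 11 lower; over all genes 44.1% of 19751 passed, 22% higher and 22.1% lower. Of the 11 higher, 10 had a transcript GC content of 50% or more, and all 11 lower were under 50%. Several calls changed when the trend with GC content was taken out, as given below. The median log2FC was -0.0059 over the 27 and -0.018 over all genes. In bulk RNA, a change per cell and a change in the mix of cells cannot be told apart. The 8 epithelial markers, led by KRT8 and KRT18, summed to 3127 to 3187 CPM with DMSO, 5521 to 5818 CPM with GSK025 and 4670 to 4971 CPM with GSK715, and their part in these results was not tested.

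Among the receptors, LRP5 rose from 64.9 ± 2.30 to 102 ± 5.28 CPM (log2FC 0.65, SE 0.052, adjusted p = 5.2e-07), whereas its close relative LRP6 fell from 55.1 ± 2.05 to 31.0 ± 0.760 CPM (log2FC -0.83, SE 0.078, adjusted p = 2.1e-06). LGR4, the R-spondin receptor that both lines express, fell from 23.0 ± 0.272 to 14.4 ± 0.708 CPM (log2FC -0.68, SE 0.11, adjusted p = 0.0002). The Frizzled receptors moved less, FZD5 lower (log2FC -0.29, SE 0.092, adjusted p = 0.02) and FZD7 higher (log2FC 0.27, SE 0.089, adjusted p = 0.027), and each call ended without any of 4 single libraries (adjusted p from 0.052 to 0.11). In the core of the pathway, CTNNB1 rose from 369 ± 6.24 to 492 ± 8.89 CPM (log2FC 0.42, SE 0.032, adjusted p = 3.6e-07). APC, the scaffold of the complex that marks β-catenin for breakdown, was at 23.3, 23.4 and 22.3 CPM with DMSO, 11.8, 11.7 and 9.82 CPM with GSK025 and 18.5, 18.4 and 20.2 CPM with GSK715. Every GSK025 library was well below every DMSO library (log2FC -1.05, SE 0.093, adjusted p = 1.2e-06), and the GSK715 libraries lay between.

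Of the 9 feedback targets and inhibitors, 7 were tested, 4 rose and 2 fell, where 22% and 22.1% of all genes did. NOTUM, an enzyme that strips the lipid from Wnt ligands, was at 8.85, 7.93 and 8.05 CPM with DMSO, 19.2, 18.5 and 17.1 CPM with GSK025 and 9.62, 9.20 and 8.66 CPM with GSK715. Its GSK025 libraries all lay above the others (log2FC 1.14, SE 0.1, adjusted p = 1.3e-06), while the DMSO and GSK715 libraries overlapped. AXIN2 reached 18.8 ± 1.94 CPM (log2FC 0.79, SE 0.098, adjusted p = 2.1e-05), RNF43 62.9 ± 1.07 CPM from 40.3 ± 1.77 (log2FC 0.64, SE 0.054, adjusted p = 7.3e-07) and ZNRF3 25.0 ± 1.96 CPM from 17.6 ± 0.924 (log2FC 0.51, SE 0.084, adjusted p = 0.00026). NKD1, which acts on Dishevelled, was the feedback target that did not pass: it was at 39.2, 41.5 and 38.9 CPM with DMSO, 37.9, 37.9 and 34 CPM with GSK025 and 43.4, 41.4 and 39.2 CPM with GSK715 (log2FC -0.12, SE 0.065, adjusted p = 0.15 with GSK025). It passed as lower with library totals (-0.19, adjusted p = 0.029). DKK1, which blocks LRP5 and LRP6 from outside the cell, was at 357, 354 and 359 CPM with DMSO, 162, 164 and 172 CPM with GSK025 and 202, 213 and 209.5 CPM with GSK715. The 3 groups of DKK1 did not overlap and libraries of a group differed little (log2FC -1.10, SE 0.037, adjusted p = 1.2e-09 with GSK025). TNFRSF19, a receptor found on crypt stem cells, was at 5.54 ± 0.227 CPM with DMSO and 3.46 ± 0.435 CPM with GSK025 (log2FC -0.68, SE 0.21, adjusted p = 0.018). This fall did not pass without DMSO library 2, GSK025 library 2 or GSK025 library 3 (adjusted p = 0.057, 0.053 and 0.069). APCDD1L, the relative of APCDD1, had 8 counts in 1 DMSO library, 4 in 1 GSK715 library and 0 in the other 7 of HCT116 and was not tested.

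Among transcription factors, SP5 was at 0.854, 0.733 and 0.554 CPM with DMSO, 1.54, 2.5 and 1.62 CPM with GSK025 and 1.11, 1.01 and 0.659 CPM with GSK715. GSK025 library 2 stood above the other 2 of its group, and all 3 were above the DMSO libraries (log2FC 1.40, SE 0.35, adjusted p = 0.0051). SOX9, which marks crypt base progenitors, rose from 129 ± 3.42 to 201 ± 5.89 CPM (log2FC 0.64, SE 0.039, adjusted p = 6e-08). TCF7 (log2FC 0.13, SE 0.099, adjusted p = 0.33) and TCF7L2 (log2FC 0.12, SE 0.05, adjusted p = 0.073) did not pass, though TCF7L2 did with DESeq2 (0.12, adjusted p = 0.037). MYB, a factor of dividing progenitors, was low in this line, at 2.07, 2.11 and 2.32 CPM with DMSO, 2.40, 1.72 and 1.95 CPM with GSK025 and 1.98, 1.89 and 0.852 CPM with GSK715, and it passed with neither inhibitor.

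The crypt base and stem or progenitor markers split, with 2 higher and 5 lower of 8 tested, where 22% and 22.1% of all genes were. The ephrin receptors that sort cells along the crypt were the 2 that rose. EPHB2 was at 45.5, 49.7 and 43.5 CPM with DMSO, 68.2, 67.7 and 65.8 CPM with GSK025 and 43.7, 39.2 and 44.0 CPM with GSK715, and only the GSK025 libraries stood apart from DMSO (log2FC 0.54, SE 0.064, adjusted p = 1.4e-05). EPHB3 was at 17.0, 19.4 and 18.1 CPM with DMSO, 24.8, 23.3 and 21.4 CPM with GSK025 and 26.4, 25.9 and 25.9 CPM with GSK715, higher with both inhibitors (log2FC 0.35, SE 0.08, adjusted p = 0.0027 with GSK025). ALCAM, an adhesion molecule of crypt stem cells, was at 146, 149 and 152 CPM with DMSO, 86.0, 86.7 and 86.1 CPM with GSK025 and 47.4, 54.4 and 56.4 CPM with GSK715, in that order with no overlap (log2FC -0.79, SE 0.058, adjusted p = 2.3e-07 with GSK025). PROM1, the surface protein CD133, was at 22.9, 20.6 and 18.9 CPM with DMSO, 14.3, 11.8 and 11.7 CPM with GSK025 and 15, 14.9 and 15.9 CPM with GSK715 and fell (log2FC -0.73, SE 0.11, adjusted p = 8.7e-05 with GSK025). BMI1, a Polycomb subunit (log2FC -0.65, SE 0.073, adjusted p = 9.8e-06), RGMB, a co-receptor of BMP signals (log2FC -0.21, SE 0.06, adjusted p = 0.011), and CD44 (log2FC -0.20, SE 0.032, adjusted p = 0.00021) fell as well. SLC12A2, the crypt chloride cotransporter NKCC1, did not pass with GSK025 (log2FC -0.0059, SE 0.064, adjusted p = 0.96). SMOC2, a matrix protein of the stem cell signature, had 0, 3 and 12 counts with GSK025 and 0 counts in the other 6 libraries.

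**Figure D1:**
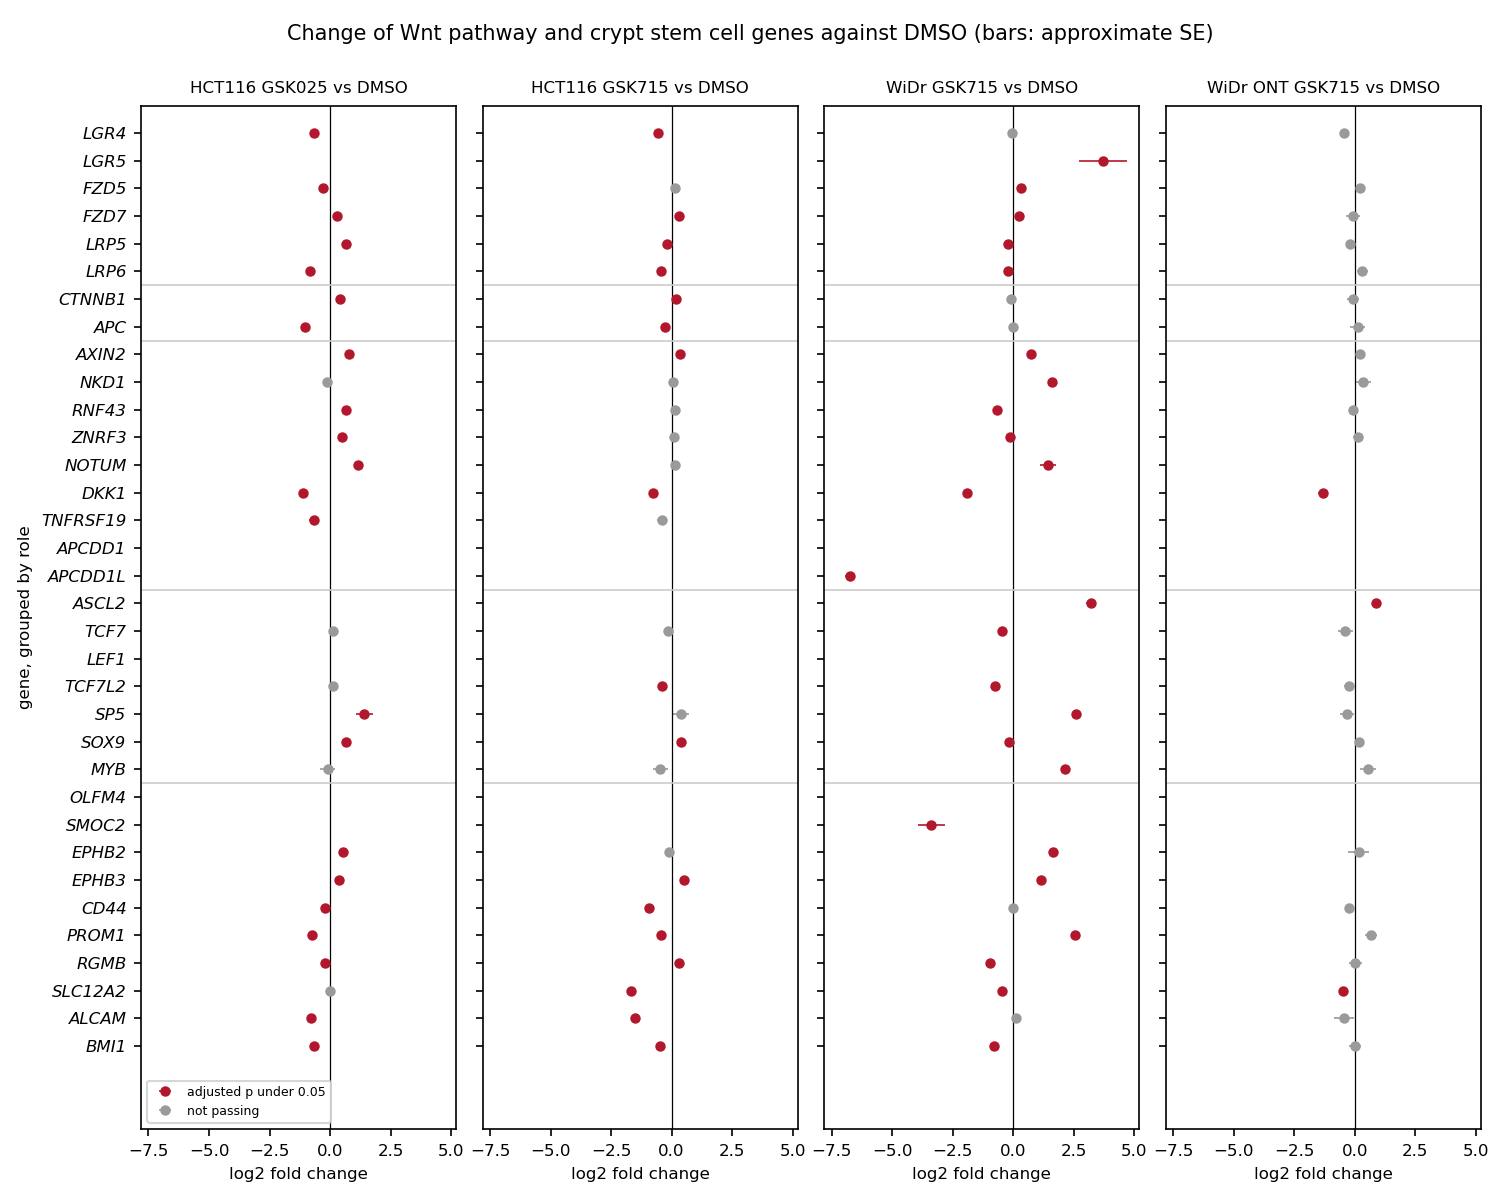
Log2 fold change against DMSO of each tested gene, in rows grouped by role (horizontal lines), with one panel per comparison. Red points passed an adjusted p of 0.05, grey points did not, and bars are the approximate SE. The ONT panel has 3 red points, against 22, 17 and 25 in the other panels.

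With GSK715 in HCT116, the surface proteins SLC12A2 and ALCAM had the largest changes, and of 7 feedback targets and inhibitors tested AXIN2 rose and DKK1 fell. Of 27 genes tested 17 passed, 6 higher and 11 lower, where 46.4% of all 19751 genes passed, 22.1% higher and 24.2% lower. SLC12A2 was at 52.5, 51.1 and 56.5 CPM with DMSO, 55.6, 50.8 and 53.0 CPM with GSK025 and 15.9, 16.0 and 17.6 CPM with GSK715. Its GSK715 libraries were all far below the other 6 (log2FC -1.69, SE 0.067, adjusted p = 1.1e-09), whose groups overlapped. ALCAM fell 2.83-fold (log2FC -1.50, SE 0.059, adjusted p = 9.9e-10) and CD44 from 696 ± 13.3 to 362 ± 8.01 CPM (log2FC -0.94, SE 0.033, adjusted p = 4e-10). DKK1 fell here too, 1.71-fold (log2FC -0.78, SE 0.037, adjusted p = 5.1e-09), as did PROM1 (log2FC -0.45, SE 0.11, adjusted p = 0.0036), LGR4 (log2FC -0.55, SE 0.11, adjusted p = 0.001) and TCF7L2, from 247 ± 3.86 to 189.6 ± 8.77 CPM (log2FC -0.38, SE 0.05, adjusted p = 3e-05). The 6 genes that rose did so by 1.13-fold to 1.43-fold: EPHB3, SOX9 (log2FC 0.37, SE 0.039, adjusted p = 4.6e-06), AXIN2 (log2FC 0.36, SE 0.098, adjusted p = 0.0078), RGMB, FZD7 and CTNNB1. RNF43 (log2FC 0.12, SE 0.054, adjusted p = 0.077), ZNRF3 (log2FC 0.11, SE 0.084, adjusted p = 0.31), NOTUM (log2FC 0.15, SE 0.1, adjusted p = 0.27) and SP5 (log2FC 0.38, SE 0.35, adjusted p = 0.42) did not pass, though RNF43 did with RLE factors (0.15, adjusted p = 0.038). Scaled by library totals and not TMM, AXIN2 (0.20, adjusted p = 0.11), CTNNB1 (0.018, adjusted p = 0.68) and FZD7 (0.13, adjusted p = 0.26) did not pass. APC (log2FC -0.27, SE 0.091, adjusted p = 0.026) did not pass without DMSO library 1 or 2 or without GSK715 library 1 or 2 (adjusted p from 0.076 to 0.089). FZD7 did not pass without DMSO library 1 or 3 or without GSK715 library 1 (adjusted p = 0.075, 0.075 and 0.057).

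Set directly against each other in HCT116, the inhibitors left most of these genes at different levels. Of 27 genes, 7 were higher and 14 lower with GSK715 than with GSK025 (44.3% of all genes passed, 21.8% higher and 22.5% lower). GSK715 libraries had less SLC12A2 (log2FC -1.69, SE 0.067, adjusted p = 9.7e-10), less SP5 (log2FC -1.03, SE 0.35, adjusted p = 0.029), less NOTUM (log2FC -0.996, SE 0.1, adjusted p = 4.4e-06) and less LRP5 (log2FC -0.84, SE 0.052, adjusted p = 5.1e-08). CD44 (log2FC -0.74, SE 0.033, adjusted p = 2.4e-09), ALCAM (log2FC -0.71, SE 0.058, adjusted p = 5.9e-07), EPHB2 (log2FC -0.67, SE 0.064, adjusted p = 2.4e-06), RNF43 (log2FC -0.52, SE 0.053, adjusted p = 5e-06) and AXIN2 (log2FC -0.42, SE 0.097, adjusted p = 0.003) were lower too. APC (log2FC 0.78, SE 0.093, adjusted p = 1.7e-05), RGMB (log2FC 0.52, SE 0.06, adjusted p = 1.1e-05), FZD5 (log2FC 0.45, SE 0.092, adjusted p = 0.0015), LRP6 (log2FC 0.39, SE 0.078, adjusted p = 0.0013) and DKK1 (log2FC 0.33, SE 0.037, adjusted p = 1.2e-05) were higher with GSK715. The SP5 call ended without GSK025 library 2, GSK715 library 2 or GSK715 library 3 (adjusted p = 0.14, 0.053 and 0.096), and the calls of NKD1, PROM1 and TCF7 ended under several settings. The inhibitors were given at different doses, 10 µM and 5 µM.

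The HCT116 changes moved with the base composition of the transcripts. Over 11197 genes with at least 5 CPM, the change with GSK025 had a Spearman correlation of 0.58 with the GC content of the longest transcript, and over the 24 of these genes that are Wnt or crypt genes it was 0.79. From the lowest to the highest of 20 bins of GC content (35.7% to 65.8%), the median log2FC of all genes went from -0.76 to 0.31. Of the 11 Wnt and crypt genes that rose, 10 had a GC content of 50% or more (43.5% to 66.5%), and all 11 that fell were under 50% (39.1% to 49.9%). With GSK715 in HCT116 the correlations were 0.44 over all genes and 0.63 over the 24, and in WiDr 0.28 and 0.26 (27 genes). Points in these correlations are genes of the same libraries and carry no p. Transcript length had weaker correlations, -0.30 over all genes and -0.17 over the 24 with GSK025.

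Each library's smooth trend of level on GC content was then taken out in the fit, a setting chosen after seeing the data. With GSK025, 21 of 27 genes passed, 11 higher and 10 lower. Of all 19751 genes, 7477 passed in that fit, 3572 higher and 3905 lower. The rises of AXIN2 (0.55, adjusted p = 0.00055), NOTUM (0.86, adjusted p = 1.7e-05), RNF43 (0.46, adjusted p = 9.9e-06) and SP5 (1.12, adjusted p = 0.02) and the falls of DKK1 (-0.95, adjusted p = 1.2e-09), APC (-0.58, adjusted p = 0.0004), ALCAM (-0.31, adjusted p = 0.00019) and PROM1 (-0.55, adjusted p = 0.001) still passed. EPHB3 (0.055, adjusted p = 0.63), FZD7 (0.041, adjusted p = 0.76), BMI1 (-0.13, adjusted p = 0.12) and TNFRSF19 (-0.50, adjusted p = 0.082) no longer passed, NKD1 passed as lower (-0.33, adjusted p = 0.00071) and TCF7L2 as higher (0.13, adjusted p = 0.041), and SLC12A2 turned and passed as higher (0.33, adjusted p = 0.00061). With GSK715, 14 genes passed in place of 17, 4 higher and 10 lower, and of all genes 8779 passed, 4107 higher and 4672 lower. AXIN2 (0.17, adjusted p = 0.17), LRP6 (-0.10, adjusted p = 0.27), BMI1 (-0.042, adjusted p = 0.63) and FZD7 (0.11, adjusted p = 0.34) were lost, APC turned (0.11, adjusted p = 0.37), and TCF7 (-0.36, adjusted p = 0.0083) and EPHB2 (-0.34, adjusted p = 0.00048) passed as lower. SLC12A2 (-1.42, adjusted p = 2.6e-09), ALCAM (-1.11, adjusted p = 3.2e-09), CD44 (-0.92, adjusted p = 3.3e-10) and DKK1 (-0.66, adjusted p = 5.6e-09) still fell. Such a fit also takes out any part of a response that itself follows GC content.

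**Figure D2:**
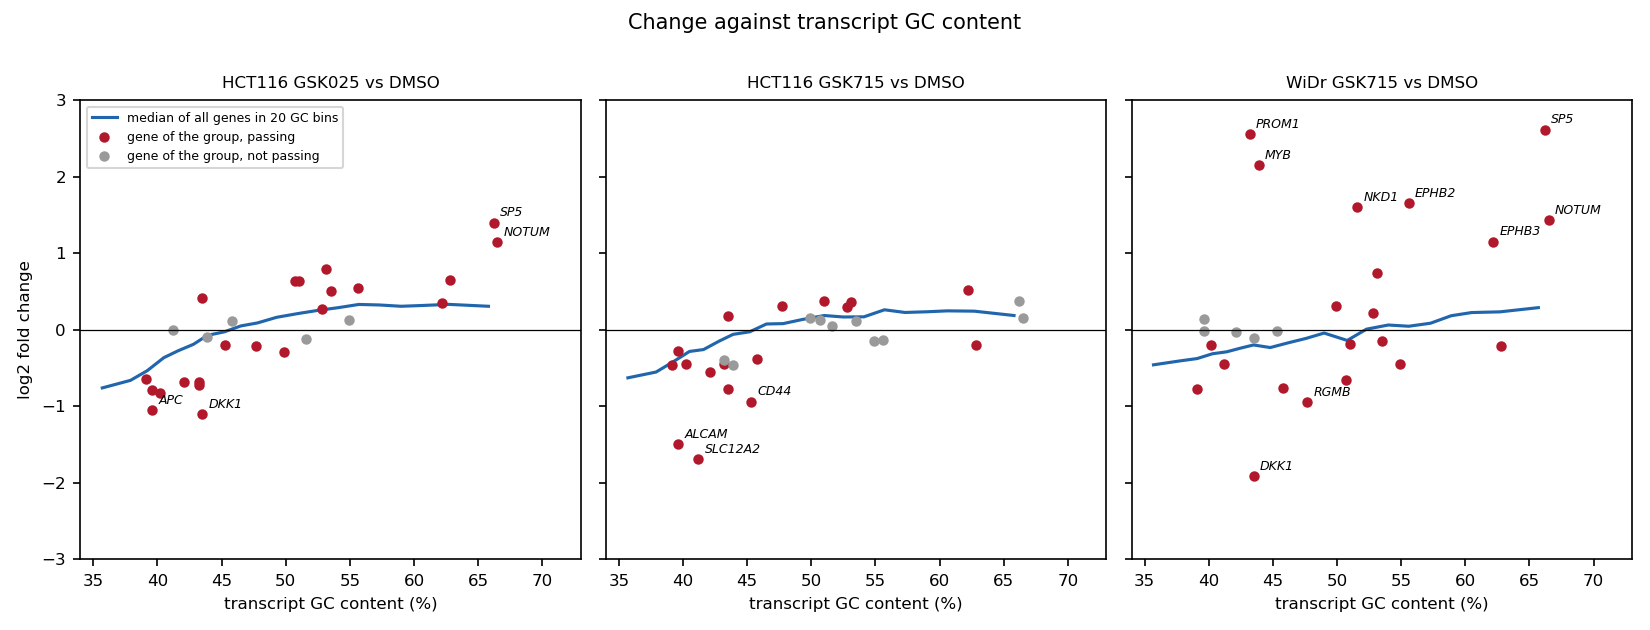
Log2 fold change of the Wnt and crypt genes (points, red where they passed an adjusted p of 0.05) against the GC content of the longest transcript in percent, with the median of all genes of at least 5 CPM in 20 GC bins (blue line). The line rises from -0.76 to 0.31 with GSK025 in HCT116, and points below 50% GC lie mostly under 0 there; in WiDr, LGR5, ASCL2, SMOC2 and APCDD1L lie outside the range drawn.

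In WiDr short reads, GSK715 raised a group of Wnt targets and progenitor genes several-fold and lowered DKK1. ASCL2 rose 9.26-fold, SP5 6.14-fold, PROM1 5.89-fold, MYB 4.45-fold, EPHB2 3.16-fold and NKD1 3.04-fold, whereas DKK1 fell 3.76-fold and APCDD1L 106-fold. Of these genes, only ASCL2 and DKK1 also passed in ONT, as given below. Of 30 genes tested 25 passed, 12 higher and 13 lower. The share over all 19340 genes was 65.8%, 33.6% higher and 32.2% lower. At least 2-fold, 9 rose and 3 fell, where 17.5% and 10.5% of all genes did. With the GC trend taken out, all 30 passed, 18 higher and 12 lower. Of all genes, 12631 passed in that fit, 7309 higher and 5322 lower. Their median log2FC was 0.153 there, against 0.0536 without this correction.

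All 6 transcription factors tested changed, 3 in each direction, where 65.8% of all genes passed, 33.6% higher and 32.2% lower. ASCL2 was at 2.26, 1.20 and 2.14 CPM with DMSO and 16.9, 17.5 and 17.6 CPM with GSK715 (log2FC 3.21, SE 0.2, adjusted p = 3.3e-07). SP5, the gene with 3 motif matches above, was at 1.54, 1.72 and 1.82 CPM with DMSO and 10.1, 10.8 and 10.3 CPM with GSK715 (log2FC 2.62, SE 0.14, adjusted p = 8.2e-08). MYB was at 7.39, 6.32 and 7.18 CPM with DMSO and 34, 29.8 and 29.2 CPM with GSK715 (log2FC 2.15, SE 0.092, adjusted p = 1.7e-08). In each of these 3 genes the lowest treated library was more than 3 times the highest DMSO library. TCF7L2, the main TCF partner of β-catenin in colon, fell from 79.7 ± 3.39 to 46.9 ± 3.14 CPM (log2FC -0.77, SE 0.053, adjusted p = 6.4e-07), TCF7 from 32.0 ± 1.33 to 23.4 ± 2.01 CPM (log2FC -0.45, SE 0.074, adjusted p = 0.00035), and SOX9 slightly (log2FC -0.18, SE 0.035, adjusted p = 0.0011).

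Feedback targets went both ways, with 3 higher and 4 lower of 7 tested, where 33.6% and 32.2% of all genes did. AXIN2 rose from 161 ± 3.94 to 269 ± 6.34 CPM (log2FC 0.74, SE 0.032, adjusted p = 1.9e-08). NKD1 was at 4.12, 3.74 and 2.54 CPM with DMSO and 10.0, 10.6 and 10.9 CPM with GSK715 (log2FC 1.60, SE 0.18, adjusted p = 2.3e-05). NOTUM stayed near 1 CPM, at 0.486, 0.713 and 0.559 CPM with DMSO and 1.61, 1.09 and 2.06 CPM with GSK715 (log2FC 1.44, SE 0.32, adjusted p = 0.0028). Both ligases fell, RNF43 from 394 ± 22.3 to 249 ± 32.4 CPM (log2FC -0.66, SE 0.083, adjusted p = 5.4e-05) and ZNRF3 from 85.2 ± 1.93 to 77.0 ± 2.30 CPM (log2FC -0.15, SE 0.035, adjusted p = 0.0042). DKK1 was at 84.8, 90.7 and 95.7 CPM with DMSO and 24.8, 26.1 and 21.2 CPM with GSK715, far apart (log2FC -1.91, SE 0.075, adjusted p = 9.7e-09). APCDD1L was at 12.7, 12.1 and 12.7 CPM with DMSO. With GSK715 its libraries held only 6, 10 and 7 counts, or 0.0880, 0.147 and 0.112 CPM (log2FC -6.73, SE 0.2, adjusted p = 1.4e-09), and no other of these genes had a larger log2FC in WiDr in either direction. TNFRSF19 had 12, 0 and 4 counts with GSK715 and 0 with DMSO and was not tested.

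Of the crypt base and progenitor markers, 3 rose and 4 fell of 9 tested, where 33.6% and 32.2% of all genes did. PROM1 was at 47.6, 47.4 and 47.6 CPM with DMSO and 277, 284 and 279.5 CPM with GSK715 (log2FC 2.56, SE 0.029, adjusted p = 5e-12). EPHB2 was at 3.60, 4.25 and 3.90 CPM with DMSO and 12.7, 12.6 and 11.9 CPM with GSK715 (log2FC 1.66, SE 0.12, adjusted p = 6.7e-07), and EPHB3 at 12.1, 10.2 and 10.1 and 21.8, 24.8 and 25.3 CPM (log2FC 1.15, SE 0.097, adjusted p = 2.8e-06). SMOC2 was weak, at 1.12, 2.01 and 1.48 CPM with DMSO and 0.0733, 0.295 and 0.0639 CPM with GSK715 (log2FC -3.39, SE 0.56, adjusted p = 0.00039). RGMB (log2FC -0.94, SE 0.049, adjusted p = 7.6e-08) and BMI1 (log2FC -0.78, SE 0.045, adjusted p = 1.6e-07) fell. SLC12A2 was at 278, 276 and 289.8 CPM with DMSO and 201, 209 and 207 CPM with GSK715, lower by 1.37-fold (log2FC -0.45, SE 0.031, adjusted p = 6.2e-07). ALCAM, at 9.68, 11.1 and 12.3 CPM with DMSO and 12.6, 12.1 and 11.8 CPM with GSK715, overlapped and did not pass (log2FC 0.14, SE 0.11, adjusted p = 0.28), nor did CD44 (log2FC -0.019, SE 0.027, adjusted p = 0.56). Both passed as higher with library totals (ALCAM 0.26, adjusted p = 0.049; CD44 0.10, adjusted p = 0.0059) and with the GC trend taken out (ALCAM 0.50, adjusted p = 0.0016; CD44 0.16, adjusted p = 0.00027).

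The receptors moved by small amounts in WiDr. FZD5 (log2FC 0.31, SE 0.045, adjusted p = 0.00016) and FZD7 (log2FC 0.22, SE 0.077, adjusted p = 0.028, over 0.05 without any of 4 single libraries) rose and LRP5 (log2FC -0.21, SE 0.041, adjusted p = 0.0012) and LRP6 (log2FC -0.21, SE 0.043, adjusted p = 0.0019) fell, while LGR4 did not pass (log2FC -0.031, SE 0.045, adjusted p = 0.56). LGR5 rose from 0, 0 and 8 counts to 30, 41 and 31 counts (log2FC 3.71, SE 0.98, adjusted p = 0.0072), all at most 0.604 CPM. CTNNB1 (log2FC -0.11, SE 0.043, adjusted p = 0.055) and APC, at 33.5, 32.9 and 34.6 CPM with DMSO and 31.4, 32.9 and 35.9 CPM with GSK715 (log2FC -0.012, SE 0.063, adjusted p = 0.88), did not pass. Scaled by library totals, LRP5 (-0.085, adjusted p = 0.12), LRP6 (-0.081, adjusted p = 0.12), SOX9 (-0.058, adjusted p = 0.18) and ZNRF3 (-0.022, adjusted p = 0.63) no longer passed. With the GC trend taken out, LRP6 turned (0.13, adjusted p = 0.0097) and LGR4 (0.24, adjusted p = 0.00052), CTNNB1 (0.13, adjusted p = 0.022) and APC (0.34, adjusted p = 0.00052) passed as higher. CTNNB1 passed as lower with RLE factors (-0.11, adjusted p = 0.046), with DESeq2 (-0.11, adjusted p = 0.015) and without GSK715 library 3 (-0.15, adjusted p = 0.0045), so its direction in WiDr is not settled. Markers moved with treatment as well. The 8 epithelial markers summed to 14532 to 14719 CPM with DMSO and 20882 to 21302 CPM with GSK715. The 12 markers of differentiated colon cells summed to 54.2 to 56.6 CPM with DMSO and 22.0 to 26.1 CPM with GSK715. Most of both sums was MUC2, a goblet cell mucin, at 45.3 to 47.6 and 14.8 to 17.7 CPM. In each group 7 of the 12 were at 0 counts in all libraries. In ONT, MUC2 was at 1.23 to 3.43 CPM with DMSO and 2.72 to 4.04 CPM with GSK715. The 13 immune, endothelial and stromal markers summed to 19.1 to 21.7 CPM with DMSO and 37.8 to 41.0 CPM with GSK715. CD14 made 7.26 to 9.03 and 20.8 to 21.3 CPM of these, and 4 of the 13 were at 0 counts in all 6 libraries. In ONT, CD14 was at 13.0 to 16.0 CPM with DMSO and 9.53 to 16.8 CPM with GSK715. The part of all these markers in the results was not tested.

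**Figure D3:**
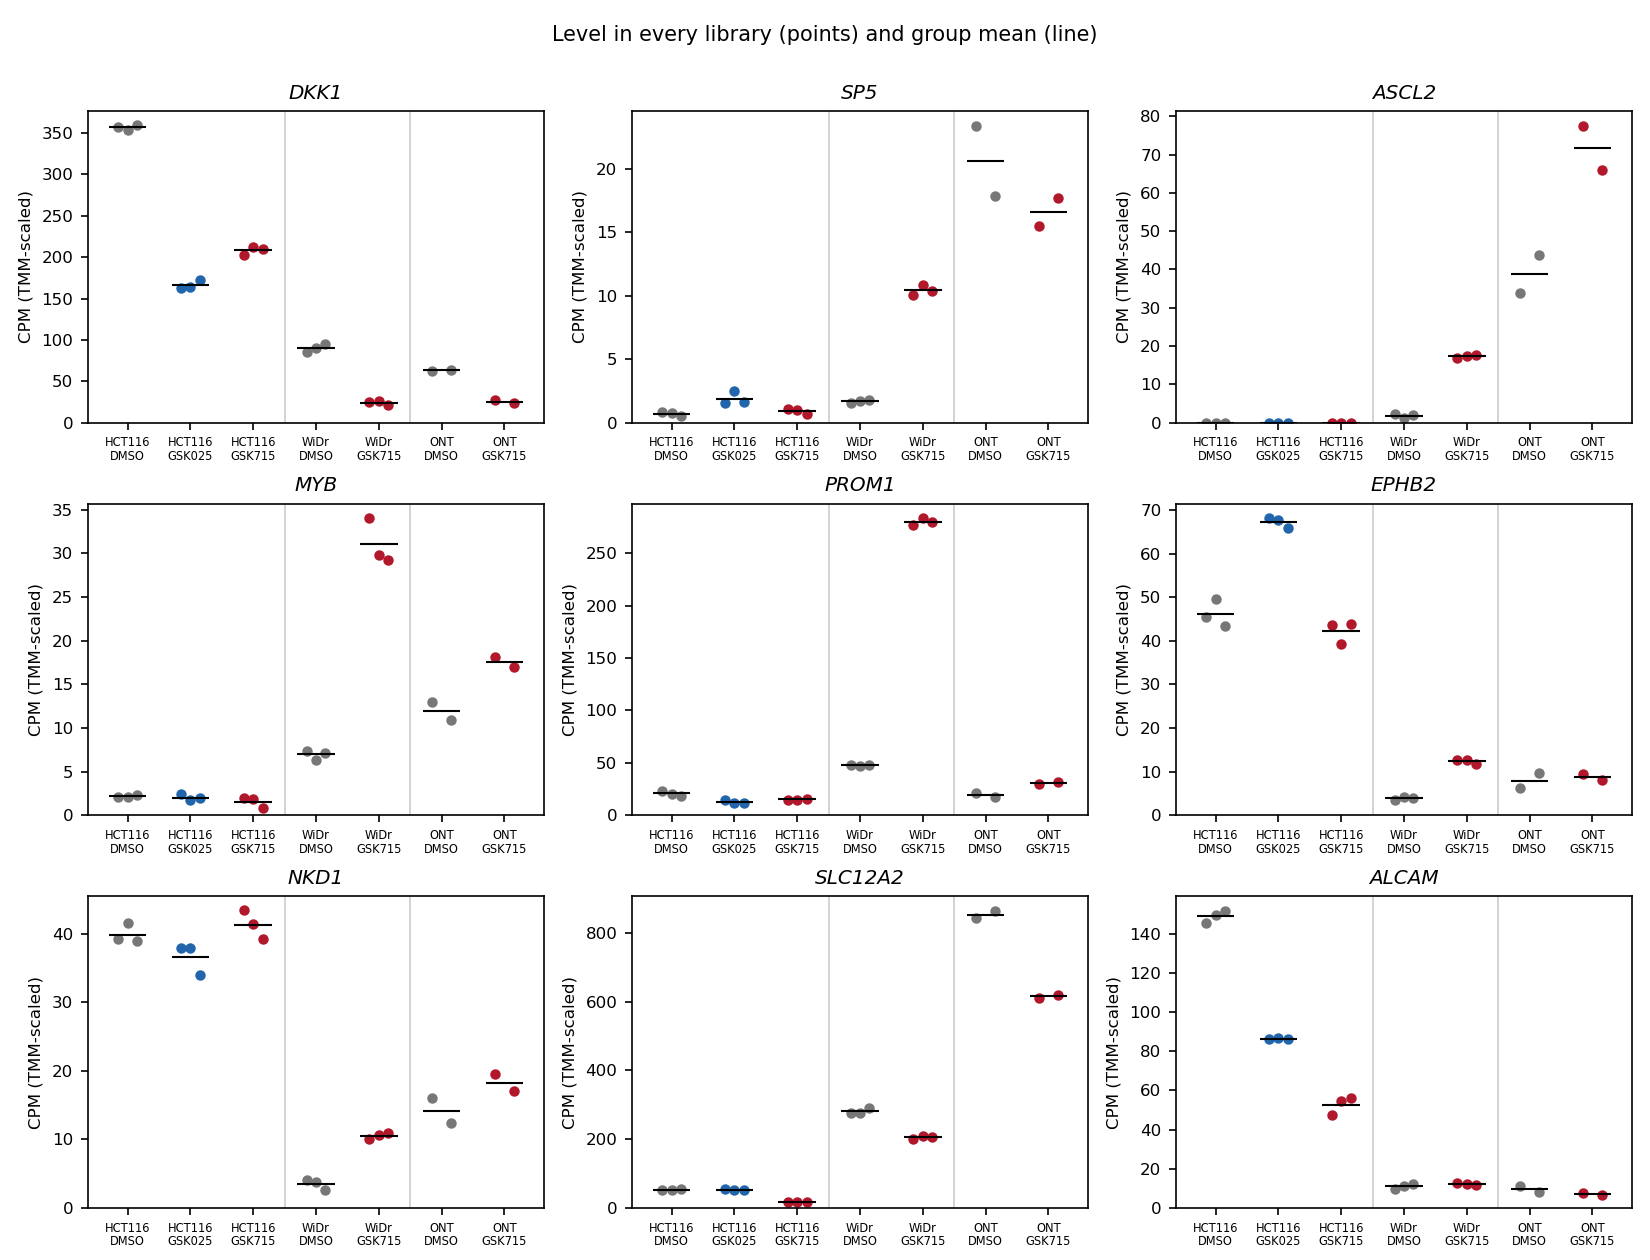
TMM-scaled CPM in every library (points; grey DMSO, blue GSK025, red GSK715) with the group mean (black line) for 9 of the genes named by library, each panel with its own axis from 0. In WiDr short reads ASCL2, SP5, MYB, PROM1, EPHB2 and NKD1 are higher with GSK715 in all 3 libraries, while in ONT only ASCL2 passed as higher.

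The GSK715 response of these genes differed between the lines for most of them. The interaction of line and treatment passed for 24 of 31 genes, 14 with a higher and 10 with a lower response in WiDr (46.7% of 21791 genes, 23.2% higher and 23.5% lower). PROM1 rose in WiDr and fell in HCT116 (difference 2.93, SE 0.082, adjusted p = 1.2e-11), MYB differed by 2.54 (SE 0.32, adjusted p = 1.8e-05), SP5 by 2.17 (SE 0.33, adjusted p = 0.00011) and EPHB2 by 1.72 (SE 0.11, adjusted p = 3.8e-08). SLC12A2 fell in both lines and more in HCT116 (difference 1.17), and ALCAM and CD44, which fell in HCT116 and did not pass in WiDr, differed by 1.56 and 0.85. In the other direction, RGMB rose in HCT116 and fell in WiDr (-1.33, SE 0.071, adjusted p = 4.8e-09), DKK1 fell in both and more in WiDr (-1.20, SE 0.09, adjusted p = 1.3e-07), and RNF43 and SOX9 had lower responses in WiDr (-0.85 and -0.62).

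Of 26 genes tested in both lines, 17 passed in HCT116 and 21 in WiDr. In both, 12 passed, which is 70.6% of the HCT116 calls and 57.1% of the WiDr calls. Over all 16313 genes tested in both, the shares were 77.1% and 57.9%, so the overlap of these genes was no larger than that of genes at large, and 63.6% of the shared calls had the same direction. Among the 12, 9 had the same direction: AXIN2, EPHB3 and FZD7 higher, and BMI1, DKK1, LRP5, LRP6, SLC12A2 and TCF7L2 lower. PROM1, RGMB and SOX9 passed in opposite directions. With the GC trend taken out, AXIN2, BMI1, FZD7 and LRP6 did not pass in HCT116, and LRP6 turned in WiDr, as given above. The 2 comparisons share no library. ASCL2 and SMOC2 have no estimate of the difference, because HCT116 had 0 counts in both groups, and those of LGR5, TNFRSF19 and APCDD1L rest on few counts in one line (51 and 4, 0 and 16, and 8 and 4 counts over the DMSO and GSK715 libraries). With library totals, which moved the median difference of all genes by 0.34, ZNRF3 (0.027, adjusted p = 0.83) and CTNNB1 (0.0028, adjusted p = 1) lost the difference, as did BMI1, TCF7 and TCF7L2 (adjusted p = 0.85, 0.96 and 0.29), and LRP5 passed as higher in WiDr (0.27, adjusted p = 0.0039).

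**Figure D4:**
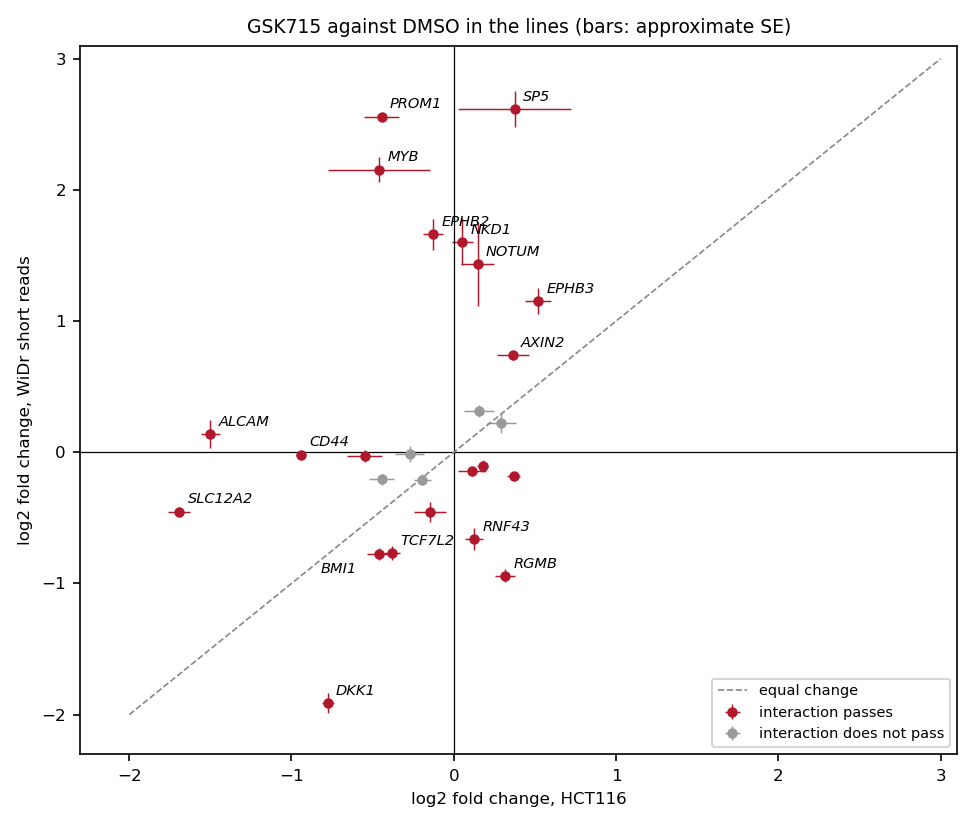
Log2 fold change with GSK715 in WiDr short reads (vertical) against HCT116 (horizontal) for the 26 genes tested in both, red where the interaction passed, with the approximate SE as bars and the line of equal change dashed. PROM1, MYB, SP5 and EPHB2 lie far above the line, and DKK1, RGMB and RNF43 below it.

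ONT reads of WiDr gave calls for DKK1, SLC12A2 and ASCL2. Of 25 genes tested 3 passed, 1 higher and 2 lower, where 8.8% of all 15877 genes passed, 4.29% higher and 4.51% lower. ASCL2 was at 33.8 and 43.9 CPM with DMSO and 77.5 and 66.0 CPM with GSK715 (log2FC 0.89, SE 0.17, adjusted p = 0.00031), a call that ended with DESeq2 (adjusted p = 0.22) and without DMSO library 1 (adjusted p = 0.093). DKK1 was at 62.8 and 63.8 CPM with DMSO and 26.9 and 23.8 CPM with GSK715 (log2FC -1.31, SE 0.19, adjusted p = 2.2e-06), and SLC12A2 at 843 and 864 CPM with DMSO and 612 and 620.0 CPM with GSK715 (log2FC -0.47, SE 0.088, adjusted p = 0.00017). All 3 also passed in the short reads, in the same direction. SLC12A2 did not pass without ONT DMSO library 2 (adjusted p = 0.052).

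Genes that rose several-fold in the short reads did not pass here, ASCL2 apart. SP5 was at 23.4 and 17.8 CPM with DMSO and 15.5 and 17.7 CPM with GSK715 (log2FC -0.32, SE 0.28, adjusted p = 0.57). PROM1 was at 20.9 and 17.1 CPM with DMSO and 30.3 and 31.3 CPM with GSK715 (log2FC 0.69, SE 0.25, adjusted p = 0.071), and MYB at 12.9 and 11 CPM with DMSO and 18.2 and 17.0 CPM with GSK715 (log2FC 0.55, SE 0.32, adjusted p = 0.34). In PROM1 and MYB both treated libraries were above both DMSO libraries, without passing. NKD1 was at 16.0 and 12.3 CPM with DMSO and 19.5 and 17.0 CPM with GSK715 (log2FC 0.36, SE 0.3, adjusted p = 0.55), and EPHB2 at 6.15 and 9.60 CPM with DMSO and 9.43 and 8.17 CPM with GSK715 (log2FC 0.17, SE 0.43, adjusted p = 0.87). ALCAM (11.1 and 8.23 CPM with DMSO, 7.41 and 6.81 CPM with GSK715) and APC (16.6 and 15.8 CPM with DMSO and 13.5 and 21.8 CPM with GSK715) did not pass either. EPHB3 (2.46 and 6.17 CPM with DMSO and 4.71 and 6.12 CPM with GSK715) and NOTUM (1.85 and 2.06 CPM with DMSO and 5.39 and 4.08 CPM with GSK715) were under the filter, as were APCDD1L, with 1 count in each group, and SMOC2, with 0 counts in all 4 libraries. A floor of 3 counts is 1.85 to 2.06 CPM in these libraries, so a gene under that level was not measurable at this depth. APCDD1L, at 12.5 CPM with DMSO in the short reads, was above that level there. The reason for its low ONT counts was not tested.

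The response itself differed between the read types for 14 of 30 genes, 7 higher and 7 lower in ONT (19.9% of 24055 genes, 11.2% higher and 8.69% lower). The difference was -2.88 for SP5 (SE 0.27, adjusted p = 1.2e-05), -2.27 for ASCL2 (SE 0.32, adjusted p = 0.00024), -1.82 for PROM1 (SE 0.15, adjusted p = 4.6e-06), -1.55 for MYB (SE 0.26, adjusted p = 0.00095) and -1.44 for EPHB2 (SE 0.34, adjusted p = 0.0098). RGMB (1.03), BMI1 (0.85), RNF43 (0.66) and TCF7L2 (0.59), which fell in the short reads, stood higher in the ONT response. In all 14 the difference ran against the short-read change, which enters both values. In place of 14 genes, 6 passed without ONT DMSO library 1, 9 without ONT DMSO library 2 and 7 without ONT GSK715 library 2, and SP5, ASCL2, PROM1, MYB and RGMB passed in each fit that left out a library. DKK1 (0.64, SE 0.23, adjusted p = 0.07) and SLC12A2 (0.031, SE 0.065, adjusted p = 0.88) did not pass. The DKK1 difference passed with DESeq2 (adjusted p = 0.02), without WiDr DMSO library 1 (adjusted p = 0.045) and without WiDr GSK715 library 2 (adjusted p = 0.031).

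The DMSO levels of the 2 WiDr tables, set side by side without a test, were also far apart for some of these genes. ASCL2 was at 38.9 CPM in ONT and 1.87 CPM in short reads, 20.8 times as high, SP5 at 20.6 and 1.69 CPM, 12.2 times as high, and NKD1 at 14.2 and 3.47 CPM. CTNNB1 (24.7 and 219 CPM) and LRP5 (47.7 and 264 CPM) were lower in ONT. APCDD1L, at 12.5 CPM in the short reads, had 1 count over both ONT DMSO libraries, and SMOC2 (1.54 CPM in the short reads) had none. The ONT DMSO level of ASCL2 was above its level in every short-read library, treated ones included. ASCL2, NOTUM and SP5 had the highest GC content of the 34 genes (69.2%, 66.5% and 66.2%). The next highest, LRP5 (62.8%), EPHB3 (62.2%) and APCDD1L (60.4%), were lower in ONT. SLC12A2, with a GC content of 41.2%, was higher in ONT (853 and 281 CPM). A link of GC content to these levels was not tested. The tables count different types of library, and nothing states that both read types were made from the same RNA.

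**Figure D5:**
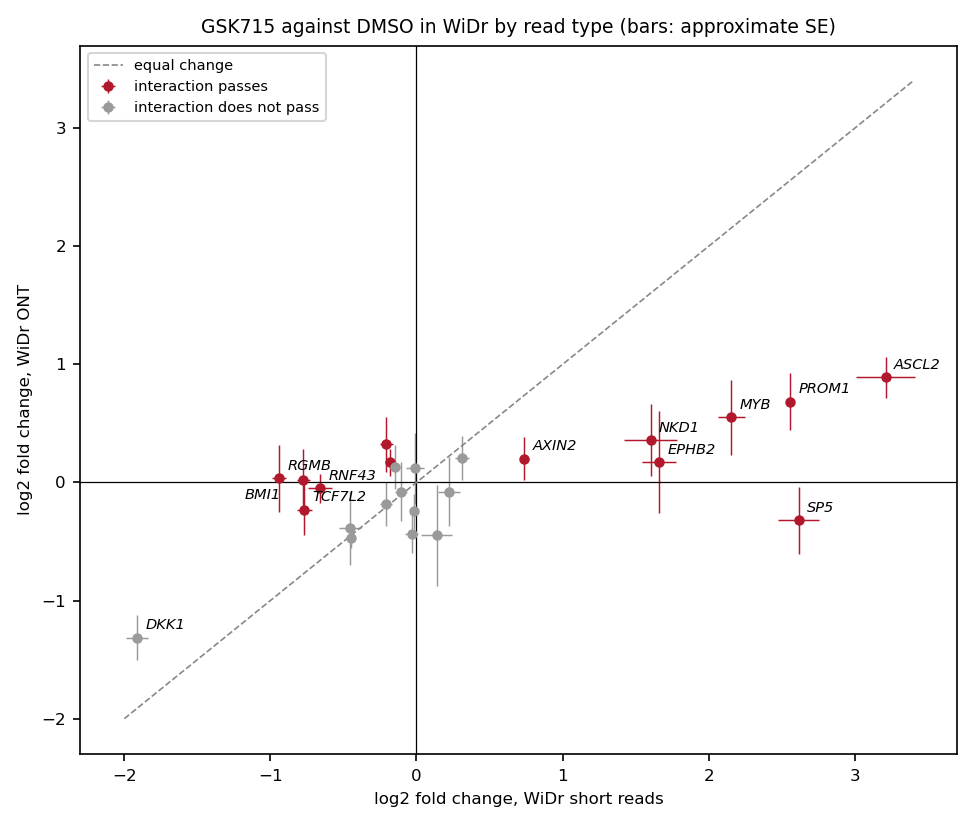
Log2 fold change with GSK715 in WiDr from ONT (vertical) against short reads (horizontal) for the 25 genes tested in both, red where the interaction of read type and treatment passed, with the approximate SE as bars and the line of equal change dashed. ASCL2, SP5, PROM1, MYB, EPHB2 and NKD1 lie well under the line, and DKK1 near it.

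A wider list of 97 other genes of the pathway, which holds no member of the group above, was counted in the same fits. In HCT116, 36 rose and 9 fell of 83 tested with GSK025 (median log2FC 0.28, and -0.018 over all genes), where 44.1% of all genes passed. With GSK715, 31 rose and 15 fell (median 0.17, and -0.052 over all genes), where 46.4% passed. In WiDr, 21 rose and 32 fell of 70 (median -0.12, and 0.054 over all genes), where 65.8% passed, and in ONT 2 rose and 3 fell of 47, where 8.8% passed. The cytoplasmic components, among them AXIN1, the GSK3 and casein kinases and the Dishevelled proteins, gave 9 higher and 3 lower of 18 with GSK715 in HCT116, where 22.1% and 24.2% of all genes did. In WiDr short reads they gave 3 higher and 14 lower of 18, where 33.6% and 32.2% of all genes did. In ONT, 14 of them were tested and 0 passed, where 8.8% of all genes did. Their response differed between the lines for 16 of 18, 13 of them lower in WiDr, where 46.7% of all genes differed and 23.5% were lower. AXIN1, the scaffold related to AXIN2, did not pass in HCT116 (log2FC 0.17, SE 0.092, adjusted p = 0.17) and fell in WiDr (log2FC -0.84, SE 0.041, adjusted p = 4.2e-08). Of 14 nuclear cofactors in HCT116, 9 rose with GSK025 and 5 did not pass, and with GSK715 8 rose and 1 fell. In WiDr, 4 rose and 6 fell of 13 with GSK715.

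Other targets on that list split in WiDr, with 5 higher and 5 lower of 14, where 65.8% of all genes passed. MYC, a driver of growth, fell (log2FC -2.03, SE 0.033, adjusted p = 3.2e-11), and its ONT change did not pass (log2FC -0.23, SE 0.19, adjusted p = 0.54); the 2 differed (log2FC 1.85, SE 0.19, adjusted p = 1.9e-05). JAG1, a Notch ligand, fell as well (log2FC -3.20, SE 0.042, adjusted p = 9.9e-12). FGF9 (log2FC 3.61, SE 0.41, adjusted p = 2.5e-05), ID2 (log2FC 1.33, SE 0.071, adjusted p = 8.8e-08) and BMP4 (log2FC 0.91, SE 0.035, adjusted p = 7.6e-09) rose. In HCT116, BMP4 rose with GSK025 (log2FC 1.03, SE 0.049, adjusted p = 9.2e-09) and fell with GSK715 (log2FC -0.58, SE 0.049, adjusted p = 6.2e-07). Of ligands and their secretion factors, WLS, which carries Wnt proteins to the cell surface, rose with GSK025 (log2FC 0.75, SE 0.052, adjusted p = 1.6e-07), with GSK715 in HCT116 (log2FC 0.53, SE 0.052, adjusted p = 2.7e-06) and in WiDr (log2FC 0.61, SE 0.033, adjusted p = 1e-07), and PORCN, which attaches their lipid, did so as well (0.36, 0.56 and 1.96). The genes named here were chosen from the list after their values were seen. Of the ligands and secretion factors, 5 were tested in ONT and 0 passed, where 8.8% of all genes did.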

How the data were processed

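RNA libraries of HCT116 and WiDr were compared within each gene table. Per the labels, poly(A) RNA was read in pairs on a NovaSeq for the short reads, and full-length cDNA on a PromethION for ONT. The submitters' processing notes name cutadapt, HISAT2, StringTie, DESeq2, minimap2, Salmon and GRCh38, with no versions or order; the annotation release and strand setting are not given in the sources used here. The authors deposited raw counts per gene for short reads and estimated counts per gene for ONT, of which 15.1% were not whole; these were rounded. WiDr columns named NC were read as DMSO by elimination. No library was a copy of another within its group. The numbers of replicates pair no samples (correlations of same-numbered deviations from -0.101 to 0.0788).

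Each comparison was fitted with edgeR 4.0.16 in R 4.3.3: filterByExpr (minimum count 10, minimum total 15), TMM, the quasi-likelihood F-test and Benjamini-Hochberg adjustment over all genes tested, at 0.05. HCT116 groups shared one fit, so both inhibitors share its DMSO libraries. Interactions used the IDs that tables share (60259 between the lines, 61975 between read types). The SE is the absolute log2FC over the root of F. Symbols, exonic length, GC content and overlaps came from GENCODE 29 (GRCh38), and promoters from RefSeq. Genes given by library are those that passed against DMSO in at least 1 comparison with an absolute log2FC of at least 1 and a mean of at least 1 CPM in a group (14 genes). The 34 genes, lists and tests were chosen with earlier results of these data known. Scripts were tested on simulated data. Alternatives were RLE factors, library totals, no filter, DESeq2 1.42.0, a replicate block, glmTreat at 1.5-fold, only the groups compared, leaving out each library and, added after seeing the data, a GC-corrected offset (lowess with a span of 0.3 per library).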

Additional observations from a re-analysis of the deposited data

Results flagged for a closer look

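The response to GSK715 differed between WiDr and HCT116, by the interaction test, for 24 genes, given as the WiDr minus the HCT116 log2FC. It was higher in WiDr for PROM1 (2.93), MYB (2.54), SP5 (2.17), EPHB2 (1.72), ALCAM (1.56), NKD1 (1.49), NOTUM (1.22), SLC12A2 (1.17), CD44 (0.85), EPHB3 (0.56), LGR4 (0.45) and AXIN2 (0.30). It was lower in WiDr for RGMB (-1.33), DKK1 (-1.20), RNF43 (-0.855), SOX9 (-0.62), TCF7L2 (-0.45), BMI1 (-0.385), TCF7 (-0.38), CTNNB1 (-0.35) and ZNRF3 (-0.33). Fitted differences of LGR5 (7.1), TNFRSF19 (5.76) and APCDD1L (-5.98) rest on few counts: LGR5 had 51 and 4 counts over the DMSO and GSK715 libraries of HCT116, TNFRSF19 had 0 and 16 in WiDr, and APCDD1L had 8 and 4 in HCT116, so these sizes are no measure of the change. That of APCDD1L was lost without HCT116 GSK715 library 3 (-2.26, adjusted p = 0.94). TCF7 lost its difference under 11 settings, 8 of which left out a library.

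In WiDr the response differed between read types for 14 genes, given as the ONT minus the short-read log2FC. It was lower in ONT for SP5 (-2.88), ASCL2 (-2.27), PROM1 (-1.82), MYB (-1.55), EPHB2 (-1.44), NKD1 (-1.19) and AXIN2 (-0.49). It was higher in ONT for RGMB (1.03), BMI1 (0.85), RNF43 (0.66), TCF7L2 (0.59), LRP6 (0.58), SOX9 (0.40) and APCDD1L (6.83), the last with 1 count in each ONT group.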

How the results depend on the processing

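Counts of genes that passed stayed within 1.5 times under RLE factors, library totals, DESeq2, the fit of only the groups compared and the GC-corrected offset for every comparison they were run on. Against a change of 1.5-fold (glmTreat), 5 genes passed with GSK025 in HCT116 (22 against no change), 4 with GSK715 (17), 4 between the inhibitors (21), 16 in WiDr (25) and 1 in ONT (3). Shares of all genes are not given here for glmTreat, the fit without a filter, the replicate block or leaving out libraries. The counts under these settings therefore cannot be read as particular to these genes. With no filter on low counts, 9 genes passed between the read types in place of 14. Leaving out 1 library at a time gave 20 to 21 with GSK025, 15 to 17 with GSK715, 17 to 22 between the inhibitors, 24 to 25 in WiDr, 2 to 3 in ONT, 23 to 25 between the lines and 6 to 15 between the read types. With the replicate block the counts were 22, 17, 20, 25, 3, 24 and 11 in the same order, and the numbers do not pair the libraries. Where a setting left 1 ONT library in a group, that library was assumed to vary like the others. Library totals moved the median change of all genes by -0.16 with GSK715 in HCT116, 0.12 in WiDr, 0.34 between the lines and -0.20 between the read types; they turned CD44 in WiDr (0.10) and, between the lines, ZNRF3 (0.0271), CTNNB1 (0.0028) and LRP5 (0.27). The GC-corrected offset turned SLC12A2 with GSK025 (0.33), APC with GSK715 in HCT116 (0.11) and, in WiDr, LGR4 (0.24), CD44 (0.16), CTNNB1 (0.13), APC (0.34) and LRP6 (0.13); it was not run on ONT, where 74.4% of genes had a GC value. The cause of these changes was not tested.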
